A study of Homo sapiens with 12 samples.

Results

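LGR5, ROR2, WLS and SHISA3 are 4 of the 14884 genes measured on 12 expression arrays of Ishikawa cells, a human endometrial adenocarcinoma line. They were taken by name as genes of the Wnt pathway. The probe set of each gene was chosen by its mean log2 signal over all 12 arrays, the highest being kept, but each gene had only 1 named probe set. The genes had been proposed with their differences between groups known, so their values are given as a description, beside the fit over all genes.

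The labels give 4 groups of 3 arrays: shMOF ERα(+), control ERα(+), shMOF ERα(-) and control ERα(-). KAT8 encodes MOF, an enzyme that acetylates histones, and shMOF stands for a short hairpin against it. ESR1 encodes ERα, an oestrogen receptor. All arrays carry total RNA of the same line, and the sources used here do not say what separates ERα(+) from ERα(-). By its title the study is about how both proteins act on each other in endometrial cancer, and the groups let shMOF be set against control in each condition.

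Wnt proteins are lipid-modified signals that cells secrete and that neighbouring cells read through Frizzled receptors. In the canonical branch, Frizzled and LRP co-receptors stop the destruction of β-catenin, which then enters the nucleus and drives target genes with TCF/LEF factors. Other branches act without β-catenin, through receptors such as ROR2, on cell polarity and movement. In the endometrium the pathway is known for its part in the growth of the glands over the menstrual cycle, and its β-catenin branch is often mutated in endometrial cancer.

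KAT8, the gene the hairpin is aimed at, was not detectably lower in arrays labelled shMOF. It differed by 0.04 on the log2 scale (95% interval -0.23 to 0.31) between shMOF and control in ERα(+) and by -0.015 (-0.29 to 0.26) in ERα(-). ESR1 differed by 0.18 (-0.08 to 0.45) between ERα(+) and ERα(-) in control arrays and by -0.15 (-0.41 to 0.12) in shMOF arrays. Its group means of 4.27 to 4.46 lay below the array medians of 4.53 to 4.59, and since the ERα labels are not explained, it is no check of them. All directions below are therefore between labelled arrays. Arrays correlated at r of 0.965 to 0.994 across genes, which are not independent replicates, and 3 of the 12 arrays had their closest partner in their own group. Of the 11 measured epithelial markers of 16, 10 had means over the arrays above 5.66, the median level of the tested genes. The highest were EPCAM at 11.5 and PAX8 at 10.7. KRT7 was the lowest, at 4.69, little above the array medians, followed by FOXA2 at 6.21. Of the 4 measured stromal markers of 12, DCN and LUM, at 2.06 and 2.20, lay below the array medians, and THY1 and TAGLN, at 4.94 and 6.05, above them. Of the 6 measured immune and endothelial markers of 12, CD68 lay above the medians, at 7.03, and the other members lay between 3.30 and 4.48. The means of the 11 measured epithelial markers of 16 lay between 7.75 and 8.07 in shMOF ERα(+), 8.13 and 8.39 in control ERα(+), 7.86 and 8.26 in shMOF ERα(-), and 7.88 and 7.99 in control ERα(-). They were thus highest in control ERα(+), although the ranges of shMOF ERα(-) and control ERα(+) overlapped. The stromal markers averaged between 3.44 and 4.30 per array and the immune and endothelial ones between 4.24 and 4.65. Their part in the results below was not tested.

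LGR5 is a receptor for R-spondins, secreted proteins that amplify Wnt signals by clearing the ubiquitin ligases RNF43 and ZNRF3 from the cell surface. It is itself a target of β-catenin and marks stem cells of the intestine. The gene lies on chromosome 12, from 71439129 to 71586310 (GRCh38.p14), and was read by probe set 16754134. In shMOF ERα(+) arrays its log2 signal was 7.68, 7.39 and 6.82, against 6.20, 5.49 and 5.73 in control ERα(+) arrays. In shMOF ERα(-) arrays it was 5.26, 7.84 and 5.78, against 7.60, 6.48 and 7.28 in control ERα(-) arrays. All shMOF ERα(+) arrays were above all control ERα(+) arrays, while in ERα(-) replicate 2 of shMOF held the highest value of all 12 arrays and replicates 1 and 3 of shMOF lay below all control ERα(-) arrays. The standard deviation over the 12 arrays, 0.93, was above that of 99.95% of the tested genes.

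In group means LGR5 stood at 7.30 ± 0.44 in shMOF ERα(+), 5.81 ± 0.36 in control ERα(+), 6.30 ± 1.36 in shMOF ERα(-) and 7.12 ± 0.58 in control ERα(-) (SD, n = 3 each). The order from high to low was shMOF ERα(+), control ERα(-), shMOF ERα(-) and control ERα(+), and each neighbouring pair overlapped. The log2 difference between shMOF and control was 1.49 ± 0.51 (SE, 95% interval 0.40 to 2.58, limma adjusted p = 0.223 over all genes) in ERα(+), a 2.81-fold higher signal. In ERα(-) it was -0.82 (-1.91 to 0.26, limma adjusted p = 0.953). Between ERα(+) and ERα(-) it was -1.31 (-2.40 to -0.23, adjusted p = 0.35) in control arrays and 1.001 (-0.09 to 2.09, adjusted p = 0.746) in shMOF arrays. None of these passed the threshold of an adjusted p below 0.05. With the first principal component of the arrays added to the fit, an alternative chosen after seeing the data, the difference was 0.47 in ERα(+) and -0.46 in ERα(-), and between ERα(+) and ERα(-) it was -0.56 in control and 0.37 in shMOF arrays. That component held 36.8% of the variance and lay below 0 in all shMOF ERα(+) arrays and above 0 in all control ERα(+) arrays, so that it takes out part of this comparison. Without shMOF ERα(-) replicate 2 the difference in ERα(-) was -1.60, and without shMOF ERα(-) replicate 1 it was -0.31. Without the same 2 arrays in turn, the difference between ERα(+) and ERα(-) in shMOF arrays was 1.77 and 0.48.

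**Figure D1:**
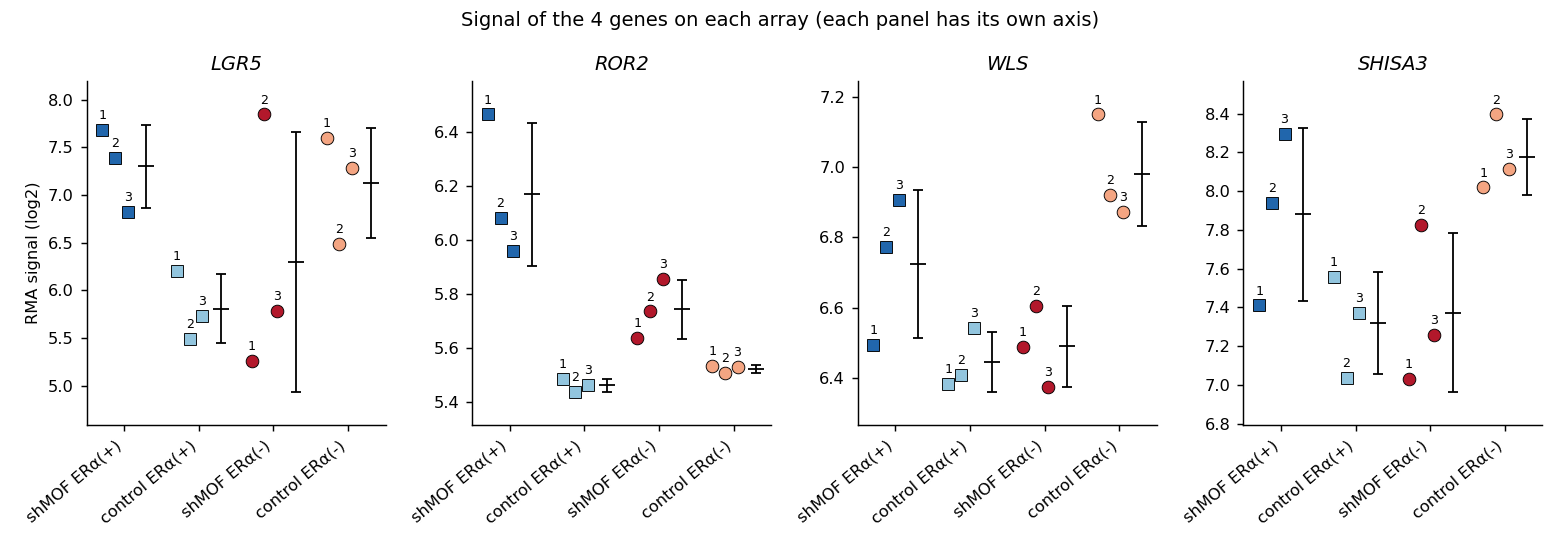
RMA log2 signal of LGR5, ROR2, WLS and SHISA3 on each of the 12 arrays, by labelled group. Numbers beside the points are replicate numbers, the bar beside each group is its mean with the standard deviation (n = 3), and each panel has its own axis. LGR5, WLS and SHISA3 have their lowest group mean in control ERα(+), and ROR2 is higher in all shMOF arrays than in all control arrays.

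ROR2 is a receptor tyrosine kinase that binds WNT5A and signals without β-catenin. It lies on chromosome 9, from 91722601 to 91950228 (GRCh38.p14; probe set 17095712). Its log2 signal was 6.47, 6.08 and 5.96 in shMOF ERα(+) arrays, against 5.49, 5.44 and 5.46 in control ERα(+) arrays. It was 5.64, 5.74 and 5.86 in shMOF ERα(-) arrays, against 5.53, 5.51 and 5.53 in control ERα(-) arrays. Each of the 6 shMOF arrays lay above each of the 6 control arrays, and the 6 control values spanned only 5.44 to 5.53. The signal was moderate, with a mean of 5.73 over the 12 arrays. All control values and shMOF ERα(-) replicate 1 lay below the median level of the tested genes, 5.66.

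The ROR2 group means were 6.17 ± 0.26 in shMOF ERα(+), 5.46 ± 0.02 in control ERα(+), 5.74 ± 0.11 in shMOF ERα(-) and 5.52 ± 0.01 in control ERα(-) (SD, n = 3 each). From high to low they ran in the order shMOF ERα(+), shMOF ERα(-), control ERα(-) and control ERα(+), and no neighbours overlapped. Between shMOF and control the log2 difference was 0.71 ± 0.13 in ERα(+) (SE, 95% interval 0.43 to 0.99, a 1.63-fold higher signal). This was the 8th smallest p of the 14884 genes and did not pass (limma adjusted p = 0.155). In ERα(-) the difference was 0.22 (-0.06 to 0.50, adjusted p = 0.953). It was -0.06 (-0.34 to 0.22, adjusted p = 0.857) between ERα(+) and ERα(-) in control arrays and 0.43 (0.14 to 0.71, adjusted p = 0.746) in shMOF arrays. Without shMOF ERα(+) replicate 1, the highest array, the difference in ERα(+) was 0.56 and that between the shMOF groups 0.28. With array quality weights the first was 0.63 and passed (adjusted p = 0.0177), and the second was 0.27 (adjusted p = 0.0782). Those weights were 3.70 on control ERα(+) replicate 1, against 0.5 and 0.449 on replicates 2 and 3. They were 8.86 on shMOF ERα(-) replicate 3, against 0.591 and 0.359 on replicates 1 and 2. The weighted means of these groups thus rest mostly on 1 array each, here and for the genes below.

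WLS carries Wnt proteins from the Golgi to the cell surface, a step that all lipid-modified Wnts need to leave the cell. It lies on chromosome 1, from 68098459 to 68232546 (GRCh38.p14; probe set 16688339). Its log2 signal was 6.49, 6.77 and 6.91 in shMOF ERα(+) arrays, against 6.38, 6.41 and 6.54 in control ERα(+) arrays. In shMOF ERα(-) arrays it was 6.49, 6.61 and 6.38, against 7.15, 6.92 and 6.87 in control ERα(-) arrays. The control ERα(-) arrays lay above all shMOF ERα(-) and all control ERα(+) arrays, and the ERα(+) groups overlapped.

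Group means of WLS were 6.72 ± 0.21 in shMOF ERα(+), 6.44 ± 0.09 in control ERα(+), 6.49 ± 0.12 in shMOF ERα(-) and 6.98 ± 0.15 in control ERα(-) (SD, n = 3 each). From high to low they ran control ERα(-), shMOF ERα(+), shMOF ERα(-) and control ERα(+), with overlap between each pair of neighbours. The log2 difference between shMOF and control was 0.28 ± 0.13 in ERα(+) (SE, 95% interval -0.01 to 0.57, limma adjusted p = 0.274). In ERα(-) it was -0.49 (-0.78 to -0.21, adjusted p = 0.953), a 1.41-fold lower signal. Between ERα(+) and ERα(-) it was -0.54 (-0.82 to -0.25, adjusted p = 0.333) in control arrays and 0.23 (-0.05 to 0.52, adjusted p = 0.746) in shMOF arrays. Array quality weights took these values, in the same order, to 0.38, -0.55, -0.54 and 0.39, each then with a limma adjusted p between 0.0198 and 0.0407. Without shMOF ERα(+) replicate 3 the differences in ERα(+) and between the shMOF groups were 0.19 and 0.14.

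SHISA3 belongs to the Shisa family, known from the frog Xenopus to hold Frizzled receptors in the endoplasmic reticulum and so to blunt Wnt signals. It lies on chromosome 4, from 42397488 to 42402487 (GRCh38.p14; probe set 16966422). Its log2 signal was 7.41, 7.94 and 8.30 in shMOF ERα(+) arrays, against 7.56, 7.03 and 7.37 in control ERα(+) arrays. In shMOF ERα(-) arrays it was 7.03, 7.83 and 7.26, against 8.02, 8.40 and 8.11 in control ERα(-) arrays. As for WLS, the control ERα(-) arrays lay above all shMOF ERα(-) and all control ERα(+) arrays, and the ERα(+) groups overlapped.

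The SHISA3 means were 7.88 ± 0.45 in shMOF ERα(+), 7.32 ± 0.26 in control ERα(+), 7.37 ± 0.41 in shMOF ERα(-) and 8.18 ± 0.20 in control ERα(-) (SD, n = 3 each). Their order was that of WLS, again with overlap between neighbours. The log2 difference between shMOF and control was 0.56 ± 0.24 in ERα(+) (SE, 95% interval 0.05 to 1.07, limma adjusted p = 0.242). In ERα(-) it was -0.80 (-1.31 to -0.30, adjusted p = 0.953), a 1.75-fold lower signal. Between ERα(+) and ERα(-) it was -0.86 (-1.36 to -0.35, adjusted p = 0.333) in control arrays and 0.51 (0.001 to 1.02, adjusted p = 0.746) in shMOF arrays. Without shMOF ERα(+) replicate 3 the differences in ERα(+) and between the shMOF groups were 0.35 and 0.30, and with the first principal component in the fit they were 0.26 and 0.32. Array quality weights made the difference in ERα(-) -0.94 and that between the shMOF groups 0.75, and both passed (adjusted p = 0.0215 and 0.0176).

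**Figure D2:**
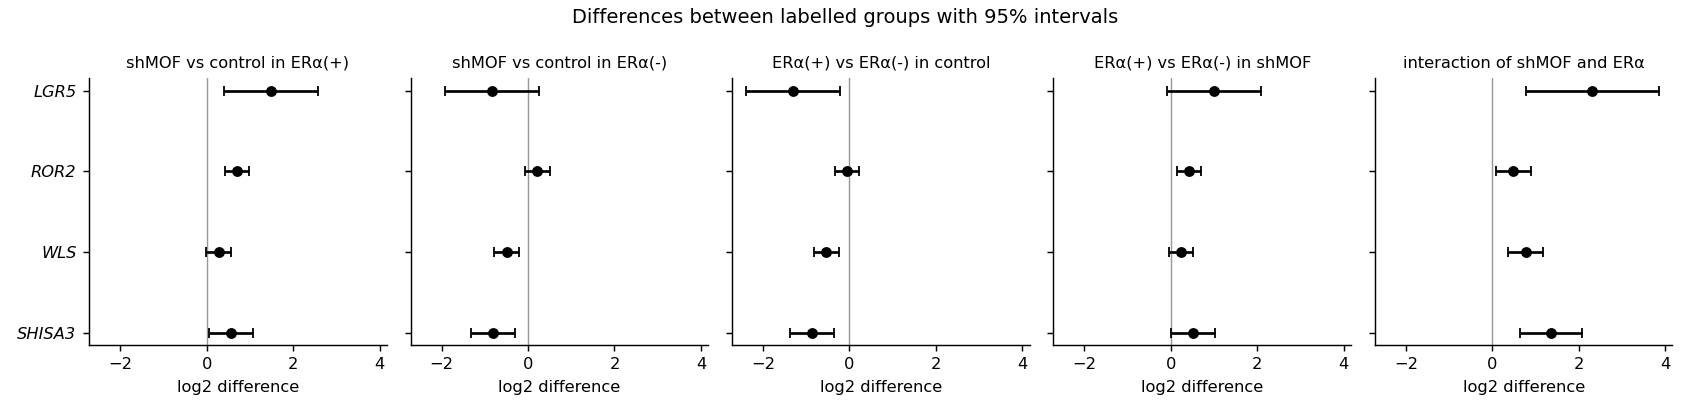
Log2 differences of the 4 genes in the 5 comparisons, with 95% intervals from limma. The first group named is minus the second, and the interaction takes the ERα(-) difference from the ERα(+) one. LGR5, WLS and SHISA3 lie on opposite sides of 0 in ERα(+) and ERα(-), and ROR2 lies above 0 in both.

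Across the 4 genes, 2 had shMOF groups that did not overlap with control in ERα(+), LGR5 and ROR2, both higher. Over all genes 12.2% were higher in shMOF without overlap there and 14.1% lower. In ERα(-) ROR2 was higher and WLS and SHISA3 lower without overlap, against 4.11% of all genes higher and 4.66% lower. Between ERα(+) and ERα(-) all 4 were lower without overlap in control arrays, ROR2 with a log2 difference of only -0.06 (8.92% of all genes lower, 10.3% higher). In shMOF arrays ROR2 alone of the 4 did not overlap and was higher (3.8% of all genes higher, 5.7% lower). Since the genes were proposed with these comparisons known, nothing is read from the counts. The comparisons also share groups, so their values are not independent of each other. Lower signal from fewer cells of a kind and from less RNA per cell cannot be told apart in bulk RNA.

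LGR5, WLS and SHISA3 had higher means in shMOF than in control in ERα(+) and lower ones in ERα(-), and the test of this contrast did not pass over all genes. The interaction, which takes the shMOF difference of ERα(-) arrays away from that of ERα(+) arrays, was 2.32 ± 0.72 (SE) for LGR5 (95% interval 0.78 to 3.85, limma adjusted p = 0.219). It was 1.37 ± 0.33 for SHISA3 (0.65 to 2.08, adjusted p = 0.207) and 0.77 ± 0.19 for WLS (0.37 to 1.18, adjusted p = 0.207). For ROR2 it was 0.49 ± 0.19 (0.09 to 0.89, adjusted p = 0.23), with the same sign of difference in both conditions, and with array quality weights it was 0.31 (adjusted p = 0.146). Limma called 0 of 14884 genes for the interaction, while 9.35% were higher and 8.69% lower at an unadjusted p below 0.05. The outcome turned on 1 array: without shMOF ERα(-) replicate 2 the values were 3.09 for LGR5, 1.59 for SHISA3 and 0.83 for WLS (adjusted p = 0.00739, 0.0256 and 0.0426), and limma called 570 genes. With array quality weights, which ranged from 0.359 on that array to 8.86 on shMOF ERα(-) replicate 3, the same 3 genes passed as well (adjusted p = 0.00973, 0.0059 and 0.00405). With the first principal component in the fit the LGR5 value was 0.92.

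Whether the receptors and the secretion factor moved together was asked with the 6 pairs of the 4 genes over the 12 arrays. WLS and SHISA3, the secretion factor and the receptor-level inhibitor, had the highest correlation, with Pearson's r of 0.843 (permutation p = 0.00094, 0.00564 adjusted over the 6 pairs). Spearman's rho was 0.839 (permutation p = 0.00124, adjusted p = 0.00744), and without control ERα(-) replicates 1 and 2, the arrays farthest from the median of WLS, r was 0.885 (permutation p = 0.00082). Of all tested genes, 0.215% had an r with WLS at least as high. After the group means were taken out, r was 0.545 (exact permutation within groups, p = 0.17, 0.509 adjusted over the 6 pairs), so the relation was not detectable among arrays of the same group. The 12 arrays include groups that differ, and points of 1 group share their label, so the pooled value mixes both sources. The genes were also proposed with their group differences known, and WLS and SHISA3 share the order of their group means. For each of the 6 pairs the pooled p, permuted without regard to groups, is therefore a description and no test of the relation.

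The receptor LGR5 correlated with WLS at r = 0.556 (permutation p = 0.0623, adjusted p = 0.125) and rho = 0.517 (p = 0.0893, adjusted p = 0.134). With SHISA3 it stood at r = 0.624 (permutation p = 0.0337, adjusted p = 0.101) and rho = 0.573 (p = 0.0561, adjusted p = 0.122). Without shMOF ERα(-) replicates 1 and 2, the arrays farthest from the median of LGR5, these r were 0.626 (permutation p = 0.0551) and 0.557 (p = 0.0968). Without shMOF ERα(+) replicate 1 alone they were 0.688 and 0.752 (permutation, adjusted p = 0.0444 and 0.0322). Without control ERα(-) replicate 2 alone, that with SHISA3 was 0.735 (permutation, adjusted p = 0.0426). These p are pooled over the groups too and are no test of the relation. Within groups r was 0.16 with WLS and 0.318 with SHISA3 (exact permutation p = 0.64 and 0.528). Of all tested genes, 14.5% and 10.8% had an r with LGR5 at least as high as WLS and SHISA3.

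The receptors LGR5 and ROR2 correlated at r = 0.469 (permutation p = 0.121, adjusted p = 0.181) and rho = 0.559 (p = 0.0612, adjusted p = 0.122). Without the same 2 arrays r was 0.534 (permutation p = 0.111), and within groups it was 0.306 (exact permutation p = 0.343). ROR2 did not follow the secretion factor over the arrays, with r = -0.08 (permutation p = 0.81, adjusted p = 0.954) and rho = 0.112 (p = 0.733). Without shMOF ERα(+) replicates 1 and 2, the arrays farthest from the median of ROR2, r was 0.042 (permutation p = 0.91). Within groups r was -0.727 (exact permutation p = 0.0756, adjusted p = 0.454). In shMOF ERα(+) the array highest in ROR2, at 6.47, was the lowest of its group in WLS, at 6.49. ROR2 and SHISA3 had r = 0.019 (permutation p = 0.954) and rho = 0.147 (p = 0.653), with r = 0.184 (p = 0.606) without the same 2 arrays and -0.516 within groups (exact permutation p = 0.321).

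**Figure D3:**
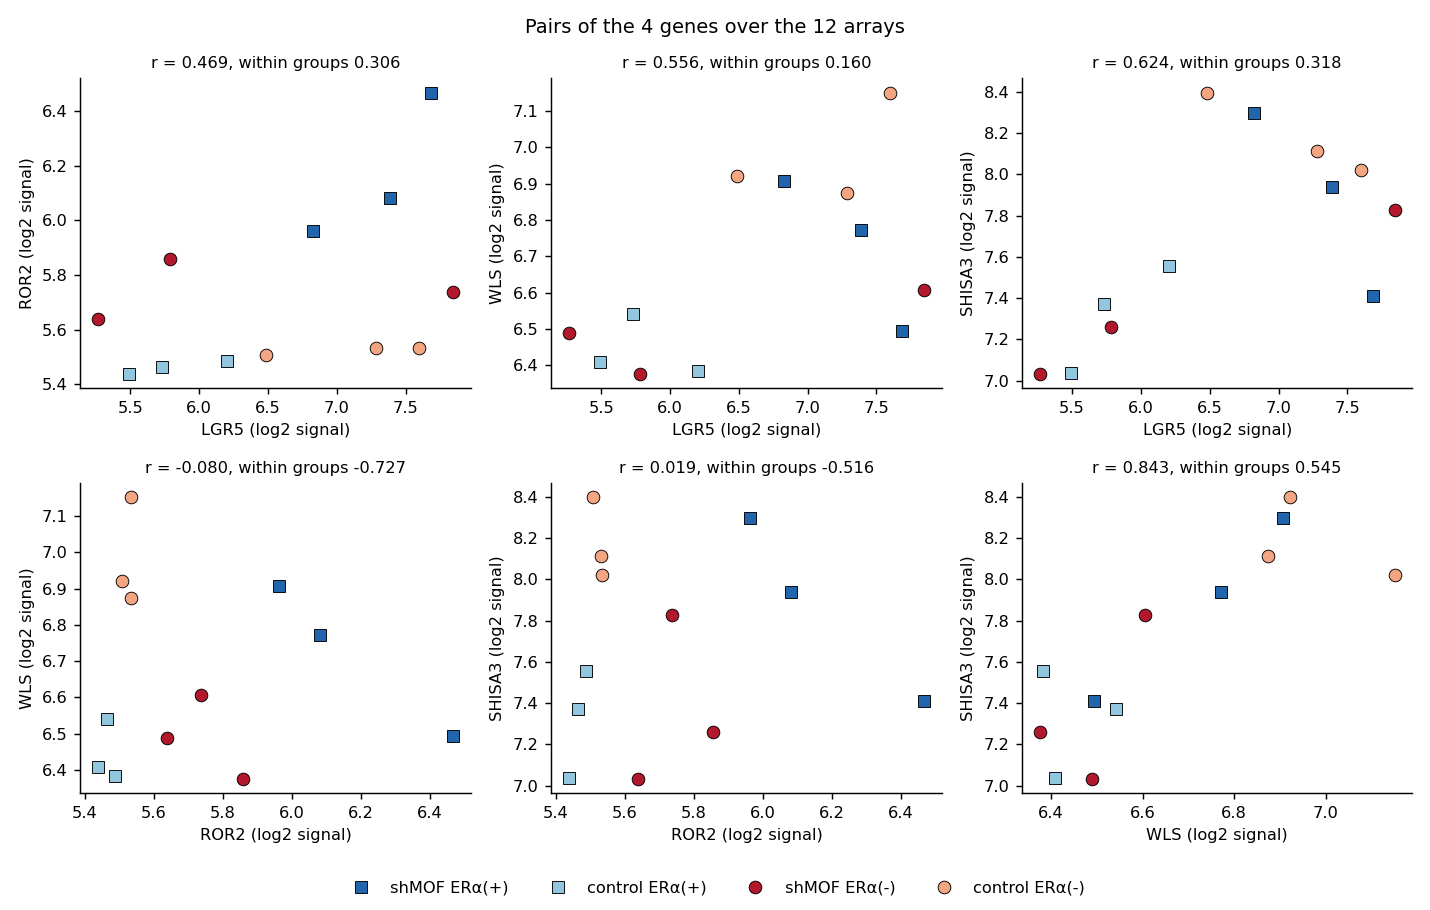
The 6 pairs of the 4 genes, with 1 point for each of the 12 arrays on log2 axes, coloured by labelled group. Pearson's r over all arrays and over deviations from the group means stands above each panel. Arrays high in WLS are mostly high in SHISA3 (r = 0.843), which is not so for ROR2 and WLS (-0.08).

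Genes whose signal ran most like each of the 4 over the 12 arrays were listed by Pearson's r, as a description. Closest to LGR5 were TRIM2 (r = 0.953), KDM6A, a histone H3K27 demethylase (0.949), HACD3, an enzyme of fatty acid elongation (0.944), THAP9 (0.943) and CSRNP3 (0.934). Most opposed to it were the calcium-binding S100A16 (-0.971), the metalloproteinase inhibitor TIMP2 (-0.965) and the membrane protein CDCP1 (-0.964). LGR5 and S100A16 stayed opposed within groups, at -0.992. LGR5 itself had r = -0.787 with the first principal component of the arrays, and 21% of all genes had a larger absolute r with that component. Whether these genes run alike through that component was not tested.

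For ROR2 the closest were LINC00113 (0.909), ARFGAP3, which acts in Golgi transport (0.854), LINC01013 (0.847), DAB1 (0.842) and the matrix protein FREM2 (0.824), and the most opposed was GPR153 (-0.888), followed by TMEM191B (-0.886) and RTP2 (-0.838). WLS was closest to NID1, a basement membrane protein (0.93), SHANK2 (0.911), the ETS factor ETV5 (0.909), NCKAP5 (0.905) and MARK1 (0.898). It was most opposed to TMEM14A (-0.944), ENC1 (-0.936) and TKTL1 (-0.928). SHISA3 was closest to GLIS3-AS1 (0.955), the proteoglycan SDC2 (0.946), NOL4 (0.941), CR2 (0.923) and CFAP107 (0.919). Most opposed to SHISA3 were BAMBI, a decoy receptor of the TGF-β family (-0.93), PSRC1 (-0.926) and the secreted CTHRC1 (-0.919). BAMBI averaged 5.02 in shMOF ERα(+), 5.36 in control ERα(+), 5.32 in shMOF ERα(-) and 4.79 in control ERα(-). Its lowest mean thus lay in the group where SHISA3 had its highest.

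The promoters of the genes are shown from 250 bases before to 50 bases after the start. The reason was that WLS and SHISA3 correlated over the pooled arrays (r = 0.843) and ROR2 and WLS did not (-0.08). Within groups the relation of WLS and SHISA3 was not detectable, and any part of the sequences in it was not tested. The sequences are from RefSeq (GRCh38.p14), whose table here held 3 of the 4 genes, and LGR5 was not among them. For WLS the table held 2 overlapping windows, and the one at the start of the whole gene is shown, the other lying 23 bases downstream. Capitals mark the TCF/LEF core CTTTG, searched on both strands together with the oestrogen response core GGTCA and the full element GGTCANNNTGACC, which contains it.
WLS, chr1:68232497-68232796, minus strand: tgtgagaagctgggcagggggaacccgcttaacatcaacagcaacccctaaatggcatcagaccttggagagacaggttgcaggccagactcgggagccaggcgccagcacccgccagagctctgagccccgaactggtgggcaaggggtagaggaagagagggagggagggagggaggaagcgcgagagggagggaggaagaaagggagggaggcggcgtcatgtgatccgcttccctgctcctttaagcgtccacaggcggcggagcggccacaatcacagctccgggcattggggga
SHISA3, chr4:42397238-42397537, plus strand: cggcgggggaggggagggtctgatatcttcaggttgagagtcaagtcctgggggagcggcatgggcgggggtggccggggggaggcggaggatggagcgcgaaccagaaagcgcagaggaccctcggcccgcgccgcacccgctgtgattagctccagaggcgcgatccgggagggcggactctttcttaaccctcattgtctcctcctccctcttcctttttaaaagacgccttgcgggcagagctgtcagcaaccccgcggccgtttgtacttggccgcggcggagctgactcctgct
ROR2, chr9:91950179-91950478, minus strand: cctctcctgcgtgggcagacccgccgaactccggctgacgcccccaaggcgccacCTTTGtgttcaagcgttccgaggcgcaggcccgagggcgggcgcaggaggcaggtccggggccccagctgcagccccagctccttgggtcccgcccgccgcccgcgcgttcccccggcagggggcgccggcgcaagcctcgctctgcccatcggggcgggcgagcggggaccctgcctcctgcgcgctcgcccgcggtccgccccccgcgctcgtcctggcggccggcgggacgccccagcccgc
The ROR2 window held 1 such TCF/LEF core, at base -195 from the start, and the windows of WLS, both included, and SHISA3 held 0. Of 35114 promoter windows of the same length, 47.5% held CTTTG, 37.4% GGTCA and 0.057% the full element, and none of the windows of the 3 genes held either of the oestrogen response motifs. Bases G and C made up 79.7% of the ROR2 window, more than in 97.1% of windows, against 63.3% in WLS and 65.3% in SHISA3. ROR2 had 42 CpG pairs, WLS 15 and SHISA3 26, against a median of 14.

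The rest of the pathway was described with lists of Wnt genes by role, of which 88 genes beside the 4 were measured out of 140. By limma 0 of the 88 passed in any of the 5 comparisons. At an unadjusted p below 0.05, 9 were higher and 11 lower in shMOF than in control in ERα(+), where 10.2% of all genes were higher and 8.51% lower. In ERα(-) 3 were higher and 2 lower (2.1% and 2.68% of all genes). Between ERα(+) and ERα(-) 6 were higher and 9 lower in control arrays (6.34% and 6.38% of all genes), and 0 were higher and 3 lower in shMOF arrays (2.52% and 2.81%). For the interaction 9 were higher and 11 lower (9.35% and 8.69% of all genes). The median log2 difference of the 88 was -0.07 in ERα(+), against -0.04 for all genes, and 0.02 in ERα(-), against -0.003. Of all genes 43.8% were above 0 between shMOF and control in ERα(+) and 49.4% in ERα(-), and between ERα(+) and ERα(-) 49.6% in control and 45% in shMOF arrays. The 1 measured ligand of 19, WNT2, differed by -0.07 ± 0.17 (SE) in ERα(+) and 0.05 ± 0.17 in ERα(-).

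Of the genes listed under secretion, 8 of 9 were measured, among them NOTUM, which acts on Wnts outside the cell. Between shMOF and control 7 of the 8 were above 0 in ERα(+) and 7 of the 8 below 0 in ERα(-), with medians of 0.26 and -0.09, where 43.8% and 49.4% of all genes were above 0. Between ERα(+) and ERα(-) all 8 were below 0 in control arrays, with a median of -0.17, and 7 were above 0 in shMOF arrays. Of all genes 49.6% and 45% were above 0 there. Each count includes WLS, which was proposed with its differences known. Between ERα(+) and ERα(-) NOTUM was at -0.27 in control arrays and -0.24 in shMOF arrays, as the gene below 0 in the latter. Between shMOF and control NOTUM was at 0.02 in ERα(+) and -0.005 in ERα(-). In ERα(+) the retromer subunit VPS26A, which helps recycle WLS, was at 0.32 ± 0.14 (SE) and the cargo receptor TMED10 at 0.35 ± 0.16, with limma adjusted p = 0.256 and 0.258. The proteoglycan GPC4 was at -0.15 ± 0.15 in ERα(-). The cargo receptor TMED2 differed by -0.18 ± 0.10 between ERα(+) and ERα(-) in control arrays, and the retromer subunit VPS35 by 0.22 ± 0.14 in shMOF arrays.

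Of the R-spondins and their receptors all 9 were measured. LGR4, the related R-spondin receptor, differed by 0.27 ± 0.12 (SE) between shMOF and control in ERα(+) (limma adjusted p = 0.26) and did not overlap. It was at 7.86 ± 0.08 in shMOF ERα(+) and 7.59 ± 0.07 in control ERα(+) (SD, n = 3 each). ZNRF3, the ligase that R-spondins clear, differed by -0.40 ± 0.16 between ERα(+) and ERα(-) in shMOF arrays (adjusted p = 0.746), where LGR5 was at 1.001. The ligand RSPO1 differed by -0.31 ± 0.17 between shMOF and control in ERα(-) and by -0.29 ± 0.17 between ERα(+) and ERα(-) in control arrays. Apart from LGR5, values of the list lay between -0.32 and 0.27 in ERα(+).

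Among Frizzled receptors and LRP co-receptors, all 12 measured, the co-receptors differed in sign. LRP5 was at -0.42 ± 0.14 (SE) and LRP6 at 0.41 ± 0.14 between shMOF and control in ERα(+), both without overlap (limma adjusted p = 0.223 for each). The median of the 12 was -0.02 there and 0.01 in ERα(-), where the receptor FZD9 was at -0.25 ± 0.12 and FZD8 at 0.31 ± 0.16 (adjusted p = 0.953 for each). FZD8 was also at 0.54 ± 0.16 between ERα(+) and ERα(-) in control arrays, and FZD2 at -0.26 ± 0.15 in shMOF arrays (adjusted p = 0.333 and 0.746). Of the ROR2-like receptors, PTK7, a pseudokinase of planar polarity, was at -0.29 ± 0.17 in ERα(+) (adjusted p = 0.347), opposite in sign to ROR2. ROR1, the closest relative of ROR2, differed by 0.48 ± 0.25 between ERα(+) and ERα(-) in control arrays (adjusted p = 0.42). The planar polarity components had 5 of 11 measured. Between ERα(+) and ERα(-) all 5 were below 0 in control arrays (median -0.33), and 3 were above and 2 below 0 in shMOF arrays. Of all genes 49.6% and 45% were above 0 there. Between shMOF and control 4 were above and 1 below 0 in ERα(+), and 2 above and 3 below in ERα(-), beside 43.8% and 49.4% of all genes above 0. In the control arrays PRICKLE1 was at -0.48 ± 0.15 (adjusted p = 0.333) and ANKRD6 at -0.33 ± 0.14 (adjusted p = 0.379). Between shMOF and control in ERα(+) ANKRD6 was at 0.49 ± 0.14 and the formin DAAM1 at 0.61 ± 0.23, both without overlap (adjusted p = 0.223 and 0.228). The related DAAM2 was at -0.21 ± 0.14 in ERα(-), and PRICKLE2 at -0.21 ± 0.15 between ERα(+) and ERα(-) in shMOF arrays.

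All 24 genes listed as inhibitors were measured. SHISA2 to SHISA9 stand in this list by family, and whether each acts on Wnt signals was not tested. Between shMOF and control SHISA4 to SHISA9 were all below 0 in ERα(+), at -0.37 to -0.12, and SHISA2 and SHISA3 above. In ERα(-) SHISA3, SHISA7 and SHISA9 were below 0 and the rest of the family above. Of the 24, 11 were above and 13 below 0 in ERα(+), with a median of -0.09. In ERα(-) 17 were above and 7 below 0, with a median of 0.05. Of all genes 43.8% and 49.4% were above 0 there. The lowest p among them in ERα(+) were those of KREMEN2, a co-receptor of DKK inhibitors, at -0.47 ± 0.13 (SE) without overlap, and SOSTDC1, which binds LRP6, at 0.61 ± 0.20 (limma adjusted p = 0.223 for each). SHISA3 was the lowest of them in ERα(-). SFRP2, which binds Wnts outside the cell, was at -0.38 ± 0.15 (SE) in ERα(-) and -0.43 ± 0.15 between ERα(+) and ERα(-) in control arrays, without overlap in both (limma adjusted p = 0.953 and 0.333). DKK4, an inhibitor that binds LRP co-receptors, was at -0.69 ± 0.19 between ERα(+) and ERα(-) in shMOF arrays (adjusted p = 0.746), opposite in sign to SHISA3.

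The β-catenin target genes had 23 of 30 measured. Between shMOF and control 6 were above and 17 below 0 in ERα(+), with a median of -0.17, and 16 above and 7 below 0 in ERα(-), with a median of 0.04. Over all genes 43.8% and 49.4% were above 0. LGR5, which stands in this list too, had the opposite sign to the median in both. AXIN2, a negative regulator that β-catenin induces, was at 0.24 ± 0.11 (SE) in ERα(-) without overlap (limma adjusted p = 0.953). LEF1, a partner of β-catenin on DNA, averaged 5.13 ± 0.13 in shMOF ERα(-) and 4.43 ± 0.52 in control ERα(-) (SD, n = 3 each), a difference of 0.70 ± 0.26 (SE, adjusted p = 0.953). BMP4, a ligand of the bone morphogenetic protein pathway, was at -1.08 ± 0.32 in ERα(+) and 0.77 ± 0.32 in ERα(-), with an interaction of -1.84 ± 0.45 (adjusted p = 0.207). In the destruction complex, with 8 of 21 core genes measured, the scaffold APC was at 0.72 ± 0.25 and BTRC, which marks β-catenin for breakdown, at 0.27 ± 0.13 in ERα(+) (adjusted p = 0.223 and 0.284). The kinase GSK3B was at -0.20 ± 0.15 in ERα(-), and APC2 at -0.46 ± 0.15 between ERα(+) and ERα(-) in control arrays. Of the TCF/LEF co-factors, with 6 of 13 genes of that list measured, LEF1 included, the co-activator BCL9L was at -0.47 ± 0.17 and the co-repressor relative TLE5 at -0.31 ± 0.13 in ERα(+), both without overlap (adjusted p = 0.223 and 0.248). PYGO1, a co-activator, was at -0.24 ± 0.11 in ERα(-). The target SOX9 was at 0.45 ± 0.16 between ERα(+) and ERα(-) in control arrays and SP5 at -0.46 ± 0.17 in shMOF arrays (adjusted p = 0.333 and 0.746).

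**Figure D4:**
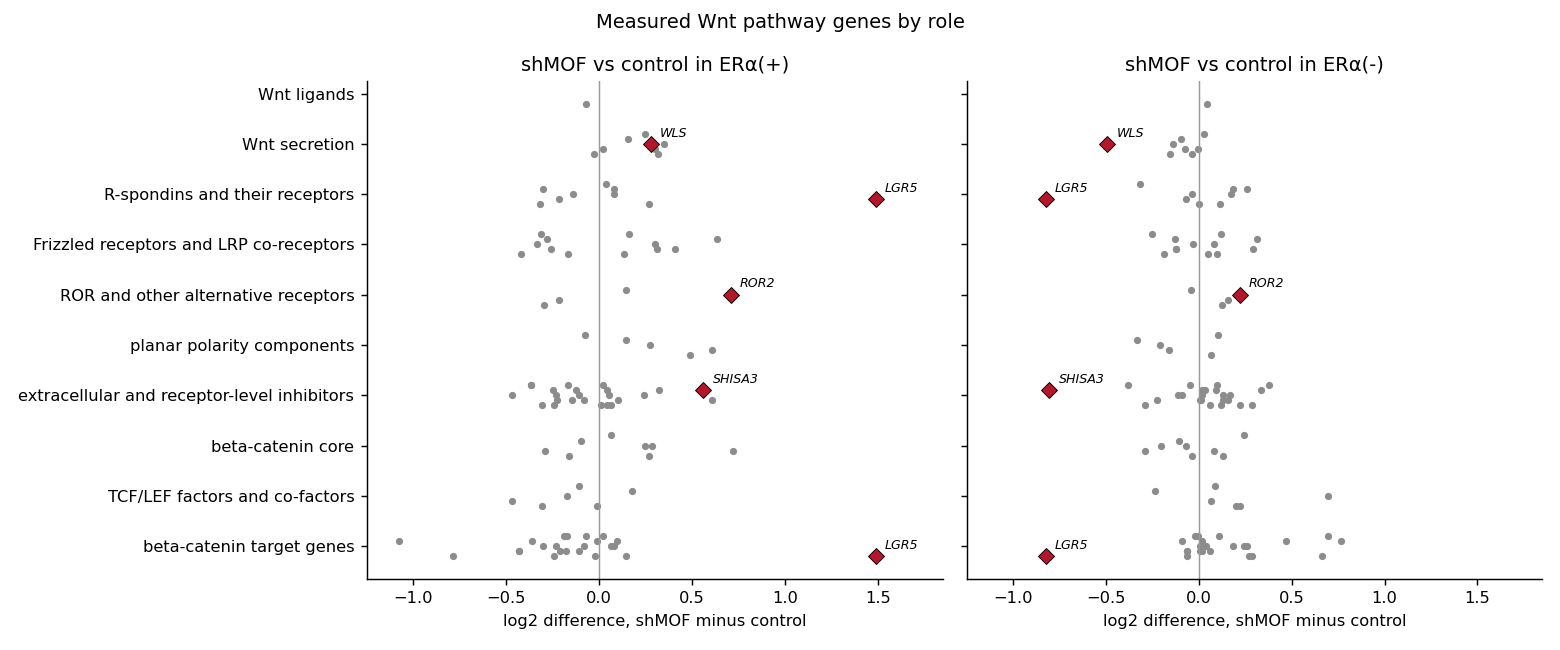
Log2 difference between shMOF and control of each measured Wnt pathway gene, by role, in ERα(+) on the left and ERα(-) on the right. Diamonds are LGR5, ROR2, WLS and SHISA3 and grey points the other genes, and a gene in 2 lists appears in both. LGR5 lies at 1.49 and -0.82, beyond the other genes of its lists on the side away from most β-catenin targets.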

How the data were processed

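Per the labels' protocols, Trizol was used to extract RNA of 12 Ishikawa samples, and biotin to label it. The submitters' processing notes name RMA and Affymetrix Expression Console 1.4.1, and the deposited values are log2 signals. RMA removes background, brings arrays to 1 distribution and summarises probes, which can shrink differences of dim transcripts. The build behind the probe sets is not given in the sources used here. Of 53617 probe sets, 16098 had 1 gene symbol in the platform annotation, 0 had several and 37519 were unnamed here. The probe set with the highest mean stood for each of 14884 genes.

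A mean per group was fitted with limma 3.58.1 in R 4.3.3 (two-sided, 8 residual and 5.6 prior degrees of freedom), with Benjamini-Hochberg adjustment over all genes within each comparison and a call at an adjusted p below 0.05. The pipeline was tested on simulated data. With 3 arrays a group, the smallest p of an exact test is 0.1. Nothing says that replicates came from separate cultures, and p-values measure only the spread of these arrays, possibly technical. The number of arrays limits the precision. Pairs of genes were correlated with 100000 permutations, or all 1296 rearrangements within groups. The 4 genes and the lists were chosen with earlier results of these data known. Genes beside the 4 were named by rule, as the 2 genes of each list lowest in p per comparison, each with its value in at least 1 such comparison, and the 5 genes most like and 3 most opposed to each of the 4.

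Replicate numbers are shared between groups in the labels. Of the 18 pairs of arrays with the same number in different groups, 5 had deviations from group means that correlated above 0.1. The highest was 0.453 and the median 0.049, against a median of -0.037 for pairs with different numbers. The arrays were not treated as paired, though a check on so few arrays cannot exclude pairing. Alternatives were other probe set choices, normalization, filter and trend, weights for array quality, a fit of each comparison's own groups, blocks and each array left out.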

Additional observations from a re-analysis of the deposited data

Results flagged for a closer look

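The ROR2 values of ERα(+) and ERα(-) arrays lay in opposite order in control and in shMOF arrays, without overlap in either. It was at 5.44 to 5.49 in control ERα(+) and 5.51 to 5.53 in control ERα(-), but at 5.96 to 6.47 in shMOF ERα(+) and 5.64 to 5.86 in shMOF ERα(-). The difference between both contrasts was 0.4879 on the log2 scale and did not pass over all genes (limma adjusted p = 0.23). The control contrast was only -0.06. Of all genes 8.92% were lower without overlap in control arrays and 3.8% higher in shMOF arrays.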

How the results depend on the processing

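None of the 20 log2 differences of LGR5, ROR2, WLS and SHISA3 turned direction under any alternative run. Of their 496 values, 482 stayed on the side of the threshold reported, and 14 passed an adjusted p of 0.05. Array quality weights gave 11 of these: WLS at -0.5476 and SHISA3 at -0.9419 in shMOF against control in ERα(-), ROR2 at 0.628 and WLS at 0.3808 in ERα(+), WLS at -0.5365 between ERα(+) and ERα(-) in control, LGR5 at 1.3059, WLS at 0.3919 and SHISA3 at 0.7494 in shMOF, and the interaction at 2.2474, 0.9284 and 1.4758 for LGR5, WLS and SHISA3. The other 3 were the interaction without shMOF ERα(-) replicate 2. Of 14884 genes, those weights also called 1629 in shMOF against control in ERα(+) and 645 in ERα(-). They called 1918 between ERα(+) and ERα(-) in shMOF and 217 in control, and 3258 for the interaction. In the same order they called 12, 6, 14, 3 and 25 of the 88 Wnt genes and LGR5, ROR2, WLS and SHISA3 together. The counts thus include genes proposed with their differences known. ROR2 and WLS are among the 12, WLS and SHISA3 among the 6, and WLS among the 3. LGR5, WLS and SHISA3 are among the 14 and among the 25. The cause of the calls with weights was not tested.

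Leaving out 1 array at a time, limma called 0 to 30 genes in shMOF against control in ERα(+) and 0 to 5 in ERα(-), 0 to 11 between ERα(+) and ERα(-) in shMOF and 0 to 4 in control, and 0 to 570 for the interaction, each highest without shMOF ERα(-) replicate 2. Of the 88 Wnt genes and the 4 together it called 0 to 1 in shMOF against control in ERα(+) and 0 to 1 between ERα(+) and ERα(-) in control. For the interaction it called 0 to 5, beside 0 to 570 of 14884 genes. The 5 include LGR5, SHISA3 and WLS, which were proposed with their differences known. The interaction spanned 1.7988 to 3.0888 for LGR5, 0.6808 to 0.8877 for WLS and 1.1582 to 1.6018 for SHISA3. Fitting only the groups compared called 9 genes between ERα(+) and ERα(-) in control. A block by replicate number called 2 genes for the interaction and changed no call of the 4 genes. The code letter of the labels, the first in each array's description, called 5 for the interaction as a random block. Its consensus correlation was -0.147, so arrays sharing a letter were no more alike than others. Without the 2 arrays most extreme on principal component 1, an alternative chosen after seeing the data, limma called 1 gene in shMOF against control in ERα(+) and 1 for the interaction.

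Leaving out 1 array at a time, r spanned 0.4752 to 0.6884 for LGR5 and WLS and 0.5296 to 0.7519 for LGR5 and SHISA3, each highest without shMOF ERα(+) replicate 1, and 0.826 to 0.9119 for WLS and SHISA3. It spanned -0.1855 to 0.1096 for ROR2 and WLS and -0.122 to 0.2374 for ROR2 and SHISA3, neither detectably different from 0. ROR2 and WLS had 0.1119 as Spearman's rho and 0.0417 without the 2 arrays farthest from the median. ROR2 and SHISA3 had -0.5163 over deviations from group means, -0.0134 after repeated quantile normalization and -0.0974 without the 2 extreme arrays of principal component 1. WLS and SHISA3 had 0.5446 over deviations from group means (exact permutation within groups, adjusted p = 0.509).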

Other observations

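CD44, a surface receptor for hyaluronan among the β-catenin targets, was chosen here after its values were seen. It differed by -0.78 ± 0.42 (SE) between shMOF and control in ERα(+), without overlap, and by 0.66 ± 0.42 in ERα(-), with signs opposite to LGR5, WLS and SHISA3 in both (limma adjusted p = 0.314 and 0.953). Over the 12 arrays BMP4 had r of -0.939 with LGR5, -0.767 with WLS, -0.792 with SHISA3 and -0.301 with ROR2, as a description of genes picked as extremes.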
